A study of Sus scrofa with 4 samples.

Results

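Chemokines are small secreted proteins that draw leukocytes along a gradient, and 10 genes of that system were followed in the pig endometrium: the chemokines CXCL10, CXCL9, CXCL2, CXCL12, CCL2, CCL5, CCL11, CCL21 and CCL28, and the receptor CXCR3. They were found by their symbols among the 21280 genes of the deposited feature lists, where each of the 10 matched 1 row. The study prepared single-cell RNA libraries from the uterine lining (endometrium) and from the embryos of pigs at 12 and 9 days of pregnancy. It holds 1 library for each of 4 groups: endometrium day 12, endometrium day 9, embryo day 12 and embryo day 9. The comparison addressed here is how chemokine transcripts of the endometrium differ between the 2 days, class of cells by class of cells. All groups are from pregnant animals, and no treatment or genotype is named in the labels. Breed and the number of animals behind a library are not given in the sources used here. Endometrium was digested with collagenases and dispase and embryos with papain and dispase, and red blood cells were lysed in both, per the labels' protocols.

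With 1 library per group no difference between days has a replicate check, and none was tested. Day and library cannot be told apart. Levels are CPM: the unique molecules (UMIs) of a gene summed over the cells of a class, per 1000000 UMIs of that class. Bracketed ranges are 95% intervals that cover counting error only, of UMIs for levels and ratios and of cells for shares. PCR and sampling of animals lie outside them. The spread of a gene between cells of a class also lies outside the ranges of levels and ratios.

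CXCL9 and CXCL10 are ligands of CXCR3, which activated T cells and natural killer (NK) cells carry, and interferon gamma is the classic inducer of both. CXCL2 draws neutrophils through CXCR2, CCL2 draws monocytes through CCR2, and CCL5 acts on T cells and monocytes. CXCL12 binds CXCR4 and is made by stroma and vessel walls, CCL11 attracts eosinophils through CCR3, CCL21 is made by lymphatic vessels and guides CCR7-bearing cells, and CCL28 is an epithelial chemokine for CCR10-bearing plasma cells. The pig trophectoderm, the outer layer of the embryo, is known to secrete interferon gamma as it elongates.

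In the RefSeq gene table of Sscrofa11.1, the build of the files, all 10 genes are annotated as protein-coding. CXCL10 lies on chromosome 8 from 71693641 to 71695948, CXCL9 on chromosome 8 from 71665541 to 71670236 and CXCL2 on chromosome 8 from 70157253 to 70159145. CCL2 lies on chromosome 12 from 40798109 to 40800013, CCL11 on chromosome 12 from 40779906 to 40782862 and CCL5 on chromosome 12 from 39652731 to 39659121. CXCL12 lies on chromosome 14 from 91516383 to 91543857, CCL21 on chromosome 10 from 32093783 to 32094482, CCL28 on chromosome 16 from 27990024 to 28010859 and CXCR3 on chromosome X from 57592032 to 57595706. CXCL9 and CXCL10 are 23404 bases apart and CCL11 and CCL2 are 15246 bases apart, with no other protein-coding gene between the members of either pair.

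After filters, 8962 cells of the day 12 endometrium, 7984 of the day 9 endometrium, 6764 of the day 12 embryo and 7001 of the day 9 embryo were used. The 2 endometrial libraries held 25457541 UMIs on day 12 and 26070993 on day 9 in these cells, and the 2 embryo libraries 65535194 and 82553496. The median cell had 2233 and 2639 UMIs in the endometrium of day 12 and day 9, and 9343.5 and 11884 in the embryos. Kept cells of different libraries shared 54 to 105 barcodes per pair of libraries. Cells of each library were clustered alone, with the 10 genes left out of the clustering, and clusters were named from marker genes. The 6 classes compared had at least 50 cells on both days: stromal-like (5618 cells on day 12 and 5093 on day 9), T or NK cell-like (1014 and 685), macrophage or monocyte-like (610 and 630), blood endothelial-like (817 and 176), smooth muscle or pericyte-like (392 and 560) and B or plasma cell-like (65 and 77). Against the markers, 12 of 13 measured macrophage markers were high in the day 12 macrophage cluster and 14 of 14 in the day 9 one. Markers of other classes were high there too: 4 of 8 and 6 of 8 of dendritic cells, and 3 of 12 and 4 of 11 of B or plasma cells. The day 9 cluster also had 3 of 5 granulocyte markers high. The granulocyte marker MS4A2 was among the 10 leading genes of both macrophage clusters. All 14 blood endothelial markers were high in the endothelial cluster of either day. Other names rest on less: cluster 7 of day 12, named T or NK cell-like by its leading genes, had 8 of 14 stromal markers high and 5 of 12 NK cell markers. Cluster 7 of day 9, named smooth muscle or pericyte-like, had 5 of 14 of its own markers and 5 of 13 stromal markers high, with the stromal marker POSTN among its 10 leading genes. Epithelium was compared by cluster number only, because the main non-ciliated cluster of day 12 (cluster 9, 296 cells) had 10 of 12 epithelial markers high but stayed unnamed, with the granulocyte marker S100A12 among its 10 leading genes.

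**Figure D1:**
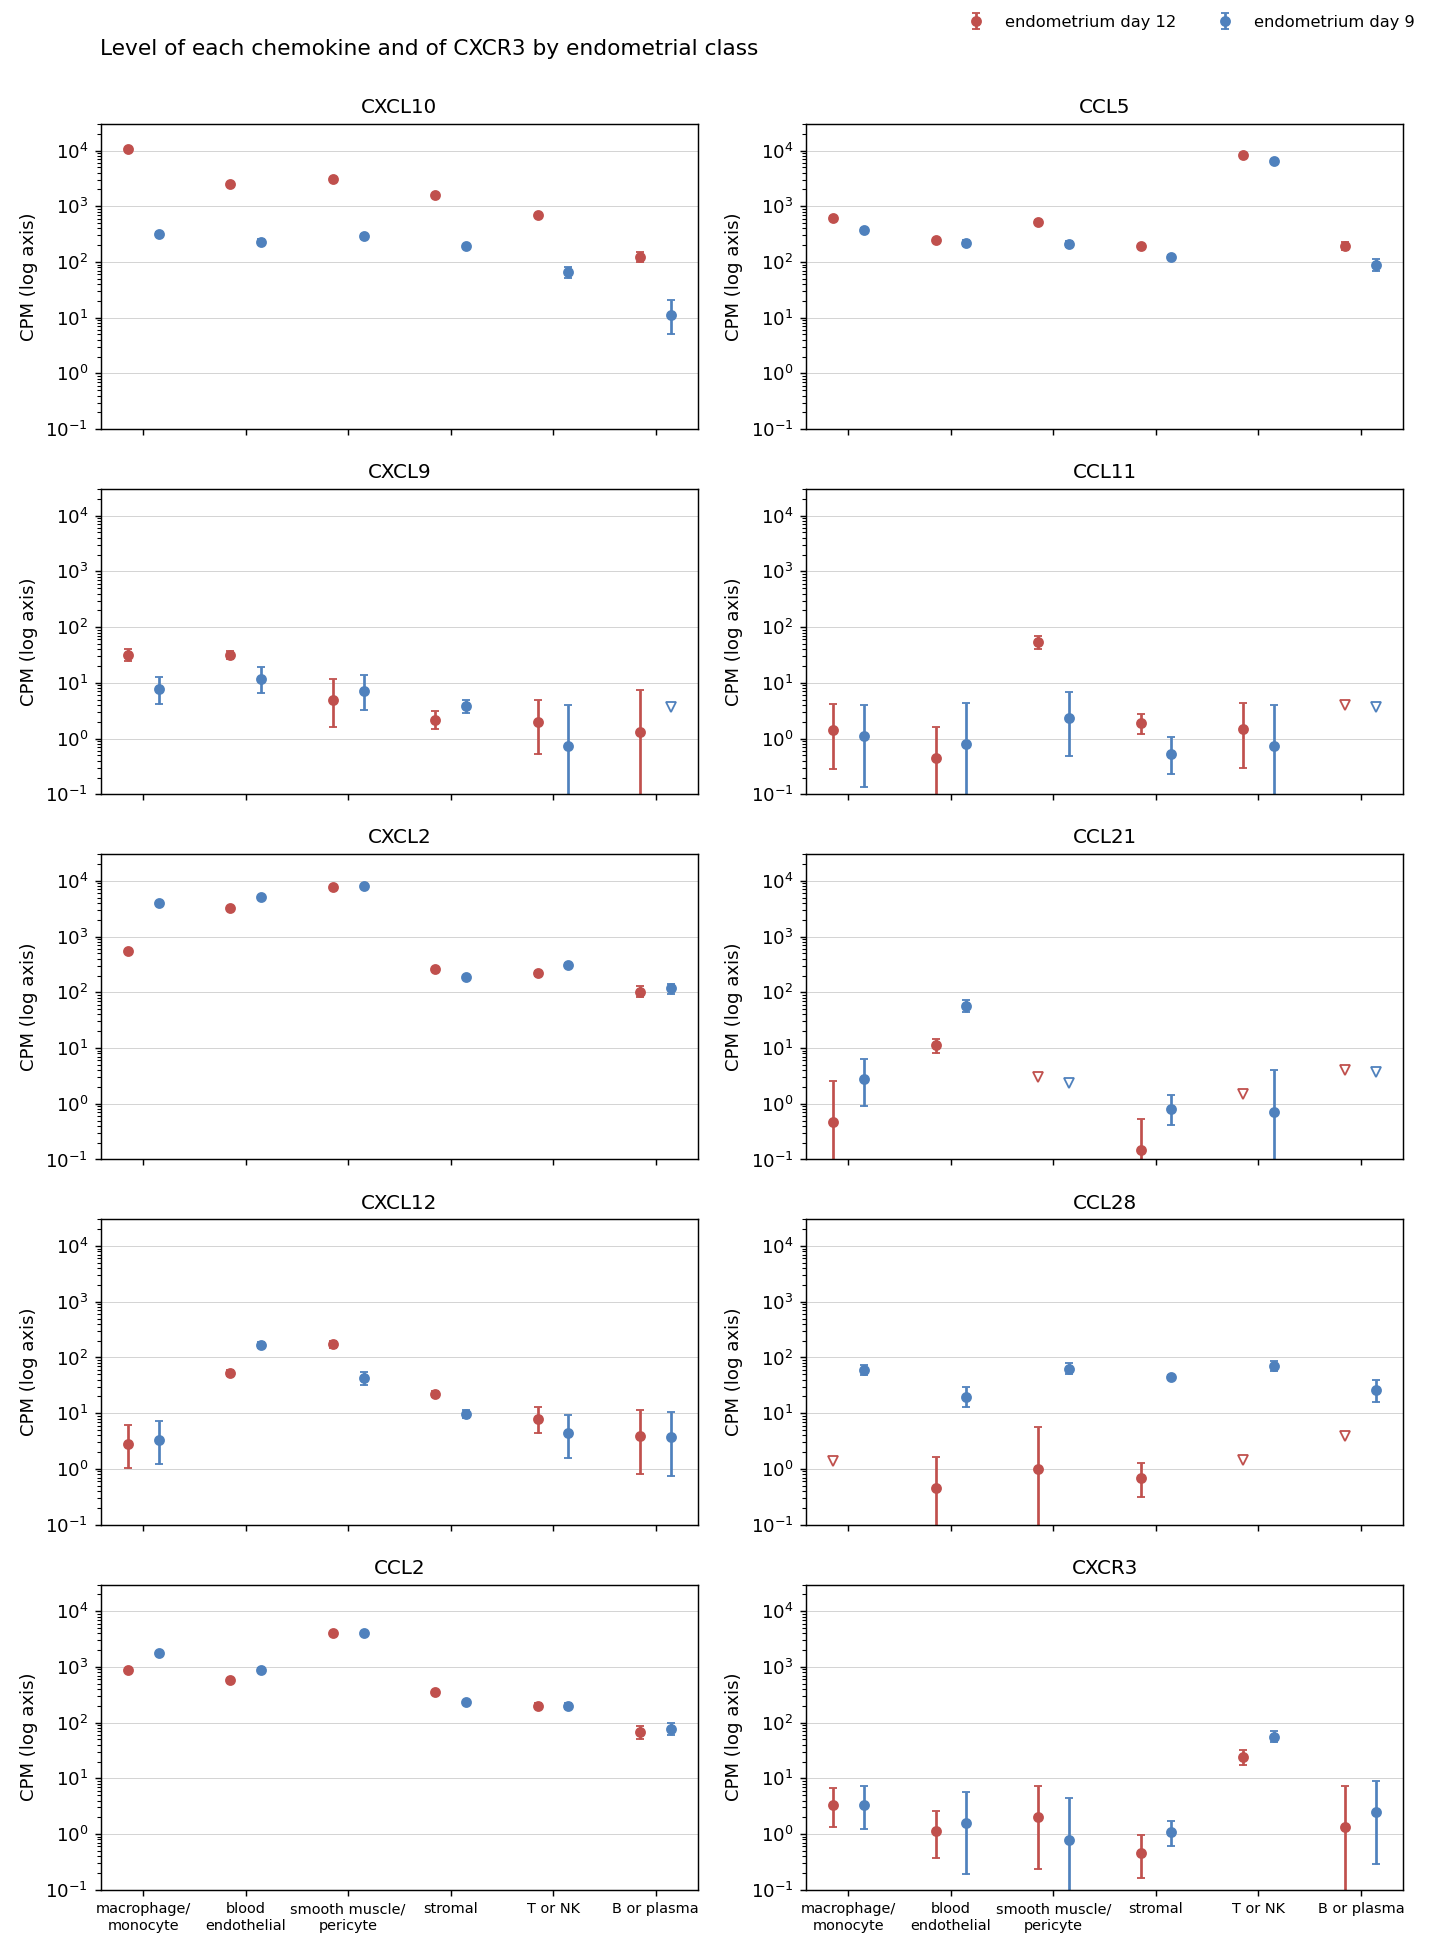
Level of each of the 10 genes (CPM, log axis) in 6 endometrial classes, day 12 in red on the left and day 9 in blue on the right, with exact Poisson 95% intervals; open triangles stand at the level of 3 counts where no UMI was counted. CXCL10 lies higher on day 12 in all 6 classes, CXCL2 lies lower on day 12 in macrophages, and CCL28 is near its floor on day 12.

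CXCL10, a CXCR3 ligand, was higher on day 12 in every class compared, and its highest level was in macrophages. The macrophage or monocyte-like class held 10444 CPM on day 12 [10308 to 10582], against 319 CPM on day 9. That is 32.7-fold higher [30.1 to 35.6], the largest ratio of CXCL10 among the classes. Blood endothelial-like cells held 2536 CPM on day 12, against 232 CPM on day 9, 10.9-fold higher [9.74 to 12.3]. Smooth muscle or pericyte-like cells held 3111 CPM on day 12, against 292 CPM on day 9, 10.6-fold higher [9.55 to 11.9]. Stromal-like cells, the matrix-forming fibroblasts of the lining, held 1618 CPM on day 12, against 194 CPM on day 9, 8.34-fold higher [8.02 to 8.67]. Over all kept cells the level was 2374 CPM on day 12, against 168 CPM on day 9, which is 14.1-fold higher [13.7 to 14.6].

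Most macrophages of day 12 carried the transcript, whereas few of day 9 did. With every cell thinned to 1000 UMIs, 85.2% of macrophage or monocyte-like cells had a CXCL10 UMI on day 12 [82.2 to 88.0], against 9.21% on day 9 [7.06 to 11.7]; unthinned shares were 92.8% and 16.3%. In cluster 9, the main epithelial cluster of day 12, the thinned share was 19.3%, and in epithelial-like cells of day 9 it was 2.83%. The median macrophage had 24 CXCL10 UMIs on day 12 and 0 on day 9. The tenth of macrophages with the most CXCL10 held 35.2% of the class's UMIs on day 12, against 93.1% on day 9, so the day 9 level came from few cells. Without the 1% of macrophages with the most CXCL10 on either day, the log2 ratio was 5.87, against 5.03 with them.

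In the other classes of day 12 the transcript was concentrated. The tenth of cells with the most CXCL10 held 75.6% of its UMIs in blood endothelial-like cells, 64.0% in smooth muscle or pericyte-like cells and 66.5% in stromal-like cells, and the median cell of each class had 1 UMI. Within the stromal-like cells of day 12, cluster 8, led by IDO1, an interferon gamma induced enzyme that breaks down tryptophan, held 4397 CPM. Cluster 12, led by DKK2, C7 and RSPO3, held 2348 CPM, cluster 2 held 1705 CPM, cluster 3 held 1460 CPM and cluster 1 held 871 CPM. All 5 stromal clusters of day 12 lay above the 3 of day 9, which held 273 CPM (cluster 5), 201 CPM (cluster 2) and 179 CPM (cluster 1). The pericyte-leaning cluster 10 of day 12, led by STMN2 and holding RGS5, had 4650 CPM, and its best match on day 9 by leading genes, cluster 7, had 487 CPM. The smooth muscle cluster 11 of day 12, led by CNN1, had 983 CPM, and its day 9 match, cluster 9, had 66.8 CPM.

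**Figure D2:**
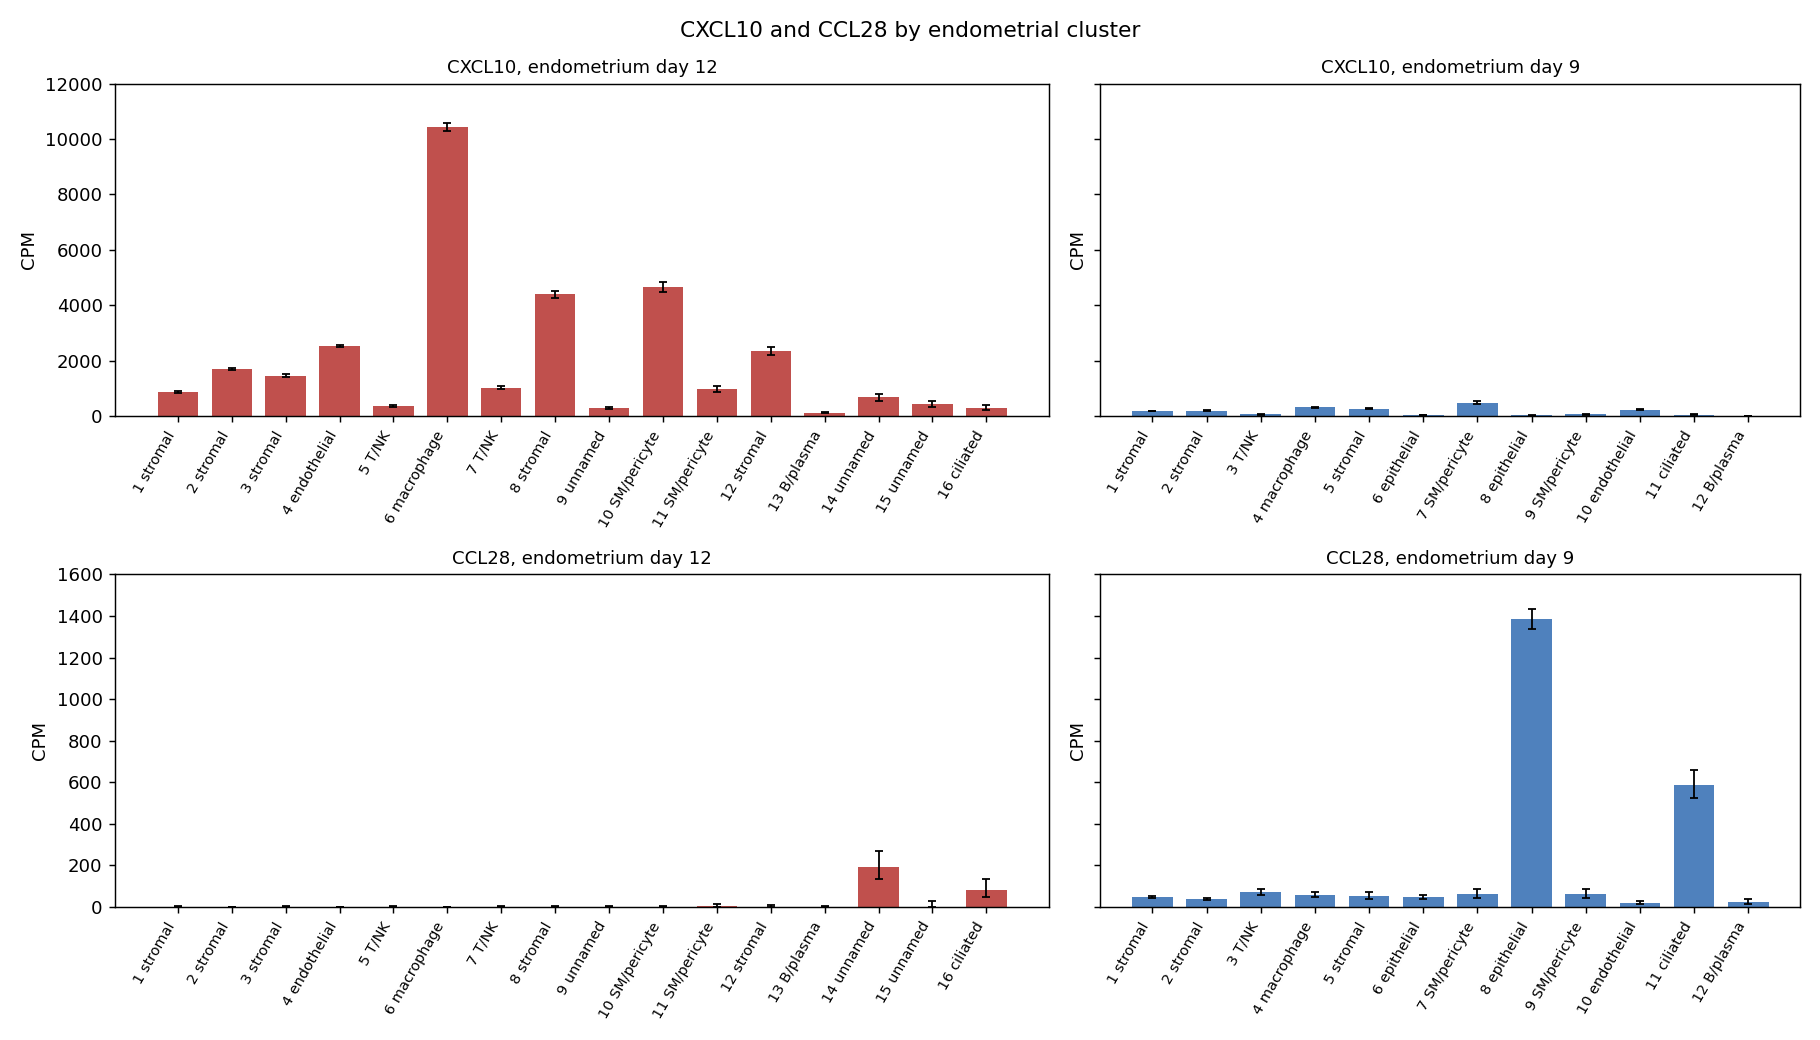
CXCL10 (top) and CCL28 (bottom) in every endometrial cluster of day 12 (left) and day 9 (right), in CPM with exact Poisson 95% intervals. On day 12 CXCL10 peaks in macrophage cluster 6 (10444 CPM), and on day 9 CCL28 peaks in epithelial cluster 8 (1386 CPM) and the ciliated cluster 11 (587 CPM).

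Free RNA in the suspension gives a few UMIs to cells of every type, and CXCL10 was counted in classes not known to make much of it. Per cell, B or plasma cell-like cells of day 12 held 1.42 CXCL10 UMIs, T or NK cell-like cells 1.39, epithelial cluster 9 1.26 and ciliated epithelial-like cells 1.26. The macrophage, endothelial, pericyte and stromal classes of day 12 held 36.7, 13.7, 7.99 and 3.84 UMIs per cell as class means, and the largest stromal cluster, cluster 1, held 1.70. The T or NK cell-like level was 687 CPM on day 12, against 65.2 CPM on day 9. Its mean of day 12 joins 2 unlike clusters, with 2.89 UMIs per cell in cluster 7 and 0.572 in cluster 5. It was less evenly spread than in B or plasma cell-like cells: on day 12 the tenth of T or NK cell-like cells with the most CXCL10 held 74.1% of its UMIs and 1 cell had 64 of them, against 34.8% and at most 5 UMIs in a B or plasma cell-like cell. The part of free RNA and of doublets in that level was not tested. Of all CXCL10 UMIs of a library, macrophages held 37.1% on day 12 and 13.2% on day 9, stroma 35.7% on day 12 and 65.8% on day 9, and endothelium 18.5% on day 12 and 6.72% on day 9. The endothelial share moved together with the number of endothelial cells, 9.12% of kept cells on day 12 and 2.20% on day 9.

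**Figure D3:**
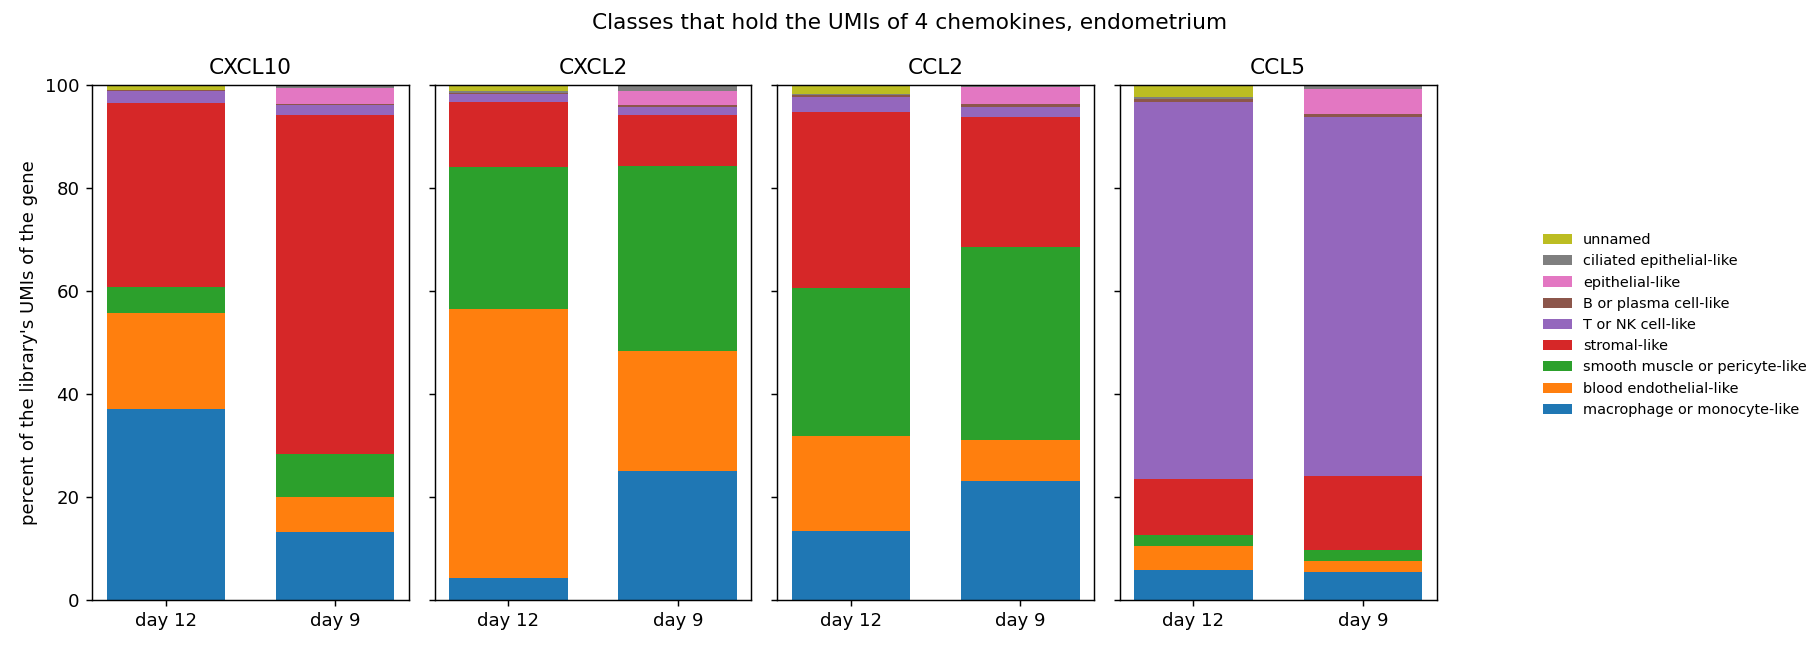
Percent of a library's UMIs of CXCL10, CXCL2, CCL2 and CCL5 that came from each endometrial class, day 12 in the left bar and day 9 in the right bar of each panel. Macrophages hold 37.1% of CXCL10 UMIs on day 12 and 13.2% on day 9, but 4.20% of CXCL2 UMIs on day 12 and 25.1% on day 9.

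CXCL9, the CXCR3 ligand beside CXCL10 on chromosome 8, was counted at 252 UMIs on day 12 and 95 UMIs on day 9 in all kept cells. Its levels were 9.90 CPM on day 12, against 3.64 CPM on day 9. In macrophage or monocyte-like cells CXCL9 stood at 32.2 CPM on day 12, against 7.74 CPM on day 9, from 69 and 14 UMIs, a 4.16-fold higher level [2.32 to 8.0]. In blood endothelial-like cells it stood at 31.7 CPM on day 12, against 11.8 CPM on day 9, from 140 and 15 UMIs, 2.69-fold higher [1.57 to 4.93]. Stromal-like cells held 2.17 CPM on day 12, against 3.76 CPM on day 9, so CXCL9 did not lie higher there on day 12 as CXCL10 did. Smooth muscle or pericyte-like cells had 5 CXCL9 UMIs on day 12 and 9 on day 9, while the class of T or NK cells had 4 on day 12 and 1 on day 9, too few to compare. CXCL11, the other ligand of CXCR3, had 60.1 CPM on day 12, against 11.06 CPM on day 9 in macrophages, 5.44-fold higher [3.38 to 9.20]. In blood endothelial-like cells CXCL11 had 176 UMIs on day 12 and 1 UMI on day 9, a ratio of 50.7 with a counting interval of 8.98 to 2012. CXCL11 is no member of the 10 and is given here for completeness of the ligands, chosen after its values were seen.

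CXCR3, the receptor of these ligands, was found mainly in T or NK cell-like cells and was lower there on day 12. That class held 49 CXCR3 UMIs on day 12 and 77 UMIs on day 9, which is 23.9 CPM on day 12 [17.7 to 31.6] and 55.8 CPM on day 9 [44.1 to 69.8]. The level was 2.33-fold lower on day 12 [1.61 to 3.41]. With cells thinned to 1000 UMIs, 3.06% of T or NK cell-like cells had a CXCR3 UMI on day 12 [2.09 to 4.31], against 7.01% on day 9 [5.21 to 9.18]. Unthinned shares were 4.44% on day 12 and 10.4% on day 9, with median depths of 1537.5 and 1326 UMIs per cell. In epithelial-like cells of day 9, which should lack the receptor and had a median of 4236 UMIs per cell, the thinned share was 0.298%, and in stromal-like cells it was 0.0356% on day 12 and 0.157% on day 9. Among cells with at least 2000 UMIs the log2 ratio of the class was -0.52, against -1.19 over all its cells.

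Within the class, cells with a CD3 UMI, the sign of a T cell, held a CXCR3 level of 19.6 CPM on day 12 [13.3 to 28.0] and 58.2 CPM on day 9 [44.4 to 74.9]. Cells of the class without a CD3 UMI, among which NK cells fall, held 36.5 CPM on day 12 [22.0 to 57.0] and 48.7 CPM on day 9 [28.4 to 78.0], ranges that overlap. Whether the CD3-positive and CD3-negative cells differ in this was not tested. Outside T or NK cells, the 48 cells of cluster 15 of day 12, an unnamed cluster led by VPREB1 and SPIB with 5 of 12 B or plasma cell markers high, held 51.3 CPM. Every other named class of either day held at most 4 CPM.

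The T or NK cell-like class differs in make-up between the days. On day 12 it was made of cluster 5 (657 cells) and cluster 7 (357 cells), and on day 9 of cluster 3 (685 cells). The 14 stromal markers summed to 5121 CPM in cluster 5, 50186 CPM in cluster 7 and 20468 CPM in day 9 cluster 3, with TCF21 and POSTN at 0 in cluster 5 and TCF21 at 0 in day 9 cluster 3. The NK cell markers summed to 19254 CPM in cluster 5, 5384 CPM in cluster 7 and 6404 CPM in day 9 cluster 3. The T cell markers summed to 3055 CPM, 913 CPM and 2012 CPM in the same order. CXCR3 stood at 27.7 CPM in cluster 5 and 20 CPM in cluster 7, both under the 55.8 CPM of day 9, so the level was lower on day 12 with and without cluster 7. The part of stromal RNA or of doublets in these values was not tested.

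CCL5, which T and NK cells make and secrete, was highest in that class on both days. T or NK cell-like cells held 8413 CPM on day 12, against 6513 CPM on day 9, a level 1.29-fold higher on day 12 [1.26 to 1.33]. Without cluster 7 the log2 ratio was 0.98, against 0.37 with it, since cluster 5 held 12810 CPM and cluster 7 held 3806 CPM. Thinned shares of cells with a CCL5 UMI were 82.3% on day 12 and 75.5% on day 9. Cells with a CD3 UMI held 9074 CPM on day 12, against 6774 CPM on day 9, and cells without one held 6476 CPM on day 12, against 5741 CPM on day 9. The class held 73.3% of the library's CCL5 UMIs on day 12 and 69.8% on day 9. Elsewhere CCL5 was between 0.452 and 2.25 UMIs per cell on day 12 and between 0.366 and 1.59 on day 9, B or plasma cell-like cells included. Smooth muscle or pericyte-like cells held 517 CPM on day 12, against 212 CPM on day 9, a ratio of 2.44 [2.10 to 2.83], and their matched clusters 11 and 9 had a ratio of 3.28 [2.68 to 4.02]. On day 12 the tenth of these cells with the most CCL5 held 78.7% of its UMIs, with at most 40 in a cell. The part of free RNA and of doublets in that level was not tested.

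CXCL2, the neutrophil chemokine, was lower in macrophages on day 12, while its level over all endometrial cells was nearly equal on both days. Macrophage or monocyte-like cells held 551 CPM on day 12, against 3930 CPM on day 9, a 7.14-fold lower level [6.71 to 7.60]. The thinned share of macrophages with a CXCL2 UMI was 23.3% on day 12 and 63.3% on day 9, against 12.2% in cluster 9 of day 12 and 17.3% in epithelial-like cells of day 9. Smooth muscle or pericyte-like cells had the highest level of any class on both days, 7732 CPM on day 12, against 8101 CPM on day 9. Blood endothelial-like cells held 3320 CPM on day 12, against 5200 CPM on day 9, 1.57-fold lower [1.52 to 1.61]. The 14 smooth muscle or pericyte markers summed to 270 CPM in the endothelial cluster of day 12, against 1182 CPM in that of day 9, with none at 0 on either day, and their part in the endothelial values of CXCL2, CCL2 and CXCL12 was not tested. All kept cells together held 1104 CPM on day 12, against 1088 CPM on day 9, a ratio of 1.01 [0.998 to 1.03].

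The cells that held CXCL2 were in different proportions on the 2 days. Endothelium held 52.2% of the CXCL2 UMIs on day 12 and 23.3% on day 9, and macrophages 4.20% on day 12 and 25.1% on day 9. Macrophages held 1.94 CXCL2 UMIs per cell on day 12 and 11.3 on day 9, and endothelial cells 17.9 on day 12 and 37.6 on day 9. Stromal-like cells, at 0.628 UMIs per cell on day 12 and 0.550 on day 9, lay under the 1.2 and 1.25 UMIs per cell of B or plasma cell-like cells, while the 166 cells of cluster 12 of day 12 held 687 CPM. T or NK cell-like cells, at 0.444 and 0.619 UMIs per cell, lay under that level too. The 15 macrophage markers summed to 14668 CPM on day 12, against 22414 CPM on day 9 in the 2 macrophage clusters, with LYZ alone at 0 on both days. LYVE1, a marker of resident tissue macrophages, had 3 UMIs in macrophages on day 12 and 232 UMIs on day 9. LYVE1 is not among the 15 macrophage markers, was listed for lymphatic endothelium, and stands outside the rule for named genes. The part of a shift in the kinds of macrophage in the CXCL2 and CXCL10 values was not tested.

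CCL2, the monocyte chemokine, followed CXCL2 in direction in macrophages and endothelium, with smaller ratios. Macrophage or monocyte-like cells held 877 CPM on day 12, against 1773 CPM on day 9, 2.02-fold lower [1.91 to 2.14]. Blood endothelial-like cells held 585 CPM on day 12, against 890 CPM on day 9, 1.52-fold lower [1.42 to 1.63]. The class of smooth muscle or pericyte-like cells stood highest on both days, with 4019 CPM on day 12, against 4139 CPM on day 9, a ratio of 0.971 [0.932 to 1.01]. Within that class the 2 matched pairs of clusters had ratios on opposite sides of 1. Cluster 10 of day 12 held 5002 CPM and its day 9 match held 6872 CPM, and cluster 11 of day 12 held 2659 CPM and its day 9 match held 975 CPM. Stromal-like cells stood at 361 CPM on day 12, against 237 CPM on day 9, which is 0.858 and 0.693 UMIs per cell, beside 0.785 and 0.831 in B or plasma cell-like cells. The library level was 553 CPM on day 12, against 535 CPM on day 9, a ratio of 1.03 [1.01 to 1.06].

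CXCL12, the ligand of CXCR4, had opposite ratios in the vessel lining and the vessel wall. Blood endothelial-like cells held 53.2 CPM on day 12, against 168 CPM on day 9, from 235 and 214 UMIs, 3.16-fold lower [2.62 to 3.82]. Smooth muscle or pericyte-like cells held 173 CPM on day 12, against 42.1 CPM on day 9, from 174 and 53 UMIs, 4.11-fold higher [3.0 to 5.70]. Nearly all of that was in cluster 10, with 294 CPM on day 12 against 75.5 CPM in its day 9 match, while cluster 11 and its match had 2 UMIs each. Stromal-like cells held 22.2 CPM on day 12, against 9.61 CPM on day 9, 2.31-fold higher [1.88 to 2.84]. Within the stroma its highest level was in cluster 3 of day 12, with 108 CPM, and in the match of that cluster, cluster 5 of day 9, with 39.6 CPM, a ratio of 2.72 [1.94 to 3.91]. CXCL14 is among the 10 leading genes of both of these clusters. The matched pairs of the 2 largest stromal clusters had ratios of 0.842 [0.545 to 1.28] and 0.896 [0.484 to 1.64]. Cluster 3 had 905 of the 5618 stromal-like cells of day 12, and cluster 5 had 379 of the 5093 of day 9. CXCR4, its receptor, was nearly level in T or NK cell-like cells, at 1598 CPM on day 12, against 1543 CPM on day 9.

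CCL11, the eosinophil chemokine beside CCL2 on chromosome 12, had most of its UMIs in the pericyte-leaning cells of day 12. Smooth muscle or pericyte-like cells held 54 UMIs on day 12 and 3 on day 9, that is 53.6 CPM on day 12, against 2.38 CPM on day 9. The ratio was 22.5 with a counting interval of 7.30 to 113. Of the 87 CCL11 UMIs of the day 12 endometrium, 53 lay in cluster 10, in 11.7% of its cells. Stromal-like cells held 25 UMIs on day 12 and 8 UMIs on day 9. CCL2, its neighbour, was not higher in cluster 10, as given above.

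CCL21, the lymphatic chemokine, came from a handful of cells on either day. There were 52 CCL21 UMIs on day 12 and 90 on day 9 in all kept cells. Of these, 90.4% on day 12 lay in 4 cells with 3 or more UMIs, and 84.4% on day 9 lay in 5 such cells. All 4 such cells of day 12 and 4 of the 5 of day 9 were in the blood endothelial-like class. Of these cells, 4 on day 12 and 4 on day 9 also had UMIs of LYVE1, and likewise 4 and 4 of MMRN1, both markers of lymphatic endothelium. The other lymphatic markers were in fewer of them: PROX1 in 2 and 2, FLT4 in 2 and 2, PDPN in 1 and 1, and RELN in 2 and 1. TFF3 and CCN3 were each in 0 on day 12 and 2 on day 9, and NTS was in 0 on both days. The class level of 11.09 CPM on day 12, against 56.6 CPM on day 9, thus rests on 4 cells a day among 817 and 176.

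CCL28, the mucosal epithelial chemokine, was scarce in the day 12 endometrium. All kept cells held 61 UMIs on day 12 and 4637 UMIs on day 9, that is 2.40 CPM on day 12, against 178 CPM on day 9, 74.2-fold lower [57.7 to 97.2]. On day 9 it stood at 1386 CPM in epithelial cluster 8, whose leading genes include SPDEF and FOXA2, transcription factors of secretory gland epithelium, and 89.7% of that cluster's cells had a UMI. The other epithelial cluster of day 9, cluster 6, held 47.3 CPM, and ciliated epithelial-like cells held 587 CPM. On day 12, cluster 14, an unnamed cluster of 59 cells led by ENSSSCG00000032503, MEP1B, ACP5 and UABP-2, held 194 CPM, and the 43 ciliated epithelial-like cells of cluster 16 held 82.9 CPM. Cluster 9, with 296 cells the largest epithelial cluster of day 12, held no CCL28 UMI, where 3 counts would be 2.41 CPM.

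By matched clusters CCL28 was lower on day 12 in both places that had it. Cluster 14 of day 12 shared 16 of 50 leading genes with cluster 8 of day 9, and CCL28 was 7.16-fold lower in it [5.11 to 10.4]. Ciliated cells were 7.08-fold lower on day 12 [4.23 to 12.8]. CCL28 is itself among the 10 leading genes of clusters 14 and 8. The match was made on leading genes taken with the 10 members left out. The level in non-epithelial classes, between 19.7 and 70.3 CPM on day 9 and at most 0.993 CPM on day 12, moved with the library total. On day 9 those classes held 0.132 to 0.273 UMIs per cell, B or plasma cell-like cells included, and 12 epithelial markers there summed to 156 to 320 CPM, against 47.9 to 297 CPM in the non-epithelial named clusters of day 12. Clusters 14 and 16 had 59 and 43 cells on day 12, and clusters 8 and 11 had 301 and 92 cells on day 9. The 14 stromal markers summed to 17152 CPM in cluster 14 and 6149 CPM in cluster 8 of day 9. The 15 macrophage markers summed to 1060 CPM in cluster 14 and 323 CPM in cluster 8. The parts of cell numbers, of the level per cell and of RNA from other cells in the CCL28 values were not tested. CCR10, the receptor of CCL28, had 67.4 CPM on day 12, against 86.7 CPM on day 9 in B or plasma cell-like cells, a ratio of 0.778 [0.532 to 1.13].

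Counted by class, with a gene called at a ratio of 2 or more in either direction and at least 20 UMIs over both days, the 10 genes were called as follows. In macrophage or monocyte-like cells 2 of 6 measured were higher on day 12 (CXCL10 and CXCL9), beside 6.27% of all genes, and 3 were lower (CXCL2, CCL2 and CCL28), beside 9.4%. In smooth muscle or pericyte-like cells 4 of 7 were higher (CXCL10, CXCL12, CCL5 and CCL11), beside 6.39% of all genes, and CCL28 was lower, beside 5.83%. In stromal-like cells 3 of 9 were higher (CXCL10, CXCL12 and CCL11), beside 7.86%, and 2 were lower (CCL28 and CXCR3, the second with 6 UMIs on day 12 and 16 on day 9), beside 12.2%. In blood endothelial-like cells 2 of 8 were higher (CXCL10 and CXCL9), beside 5.79%, and 3 were lower (CXCL12, CCL21 and CCL28), beside 7.23%. In T or NK cell-like cells CXCL10 alone was higher of 7 measured, beside 6.12%, and CCL28 and CXCR3 were lower, beside 6.01%. In B or plasma cell-like cells 2 of 5 were higher (CXCL10 and CCL5), beside 4.85%, and CCL28 was lower, beside 13.0%. The part of free RNA in the CCL28 ratios of these classes, in CCL5 of pericytes and in CXCL10 of T or NK cells was not tested. Nor was its part in CXCL10 and CCL5 of B or plasma cell-like cells. The genes were chosen with earlier results of these data known, so these counts describe them and support nothing further.

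**Figure D4:**
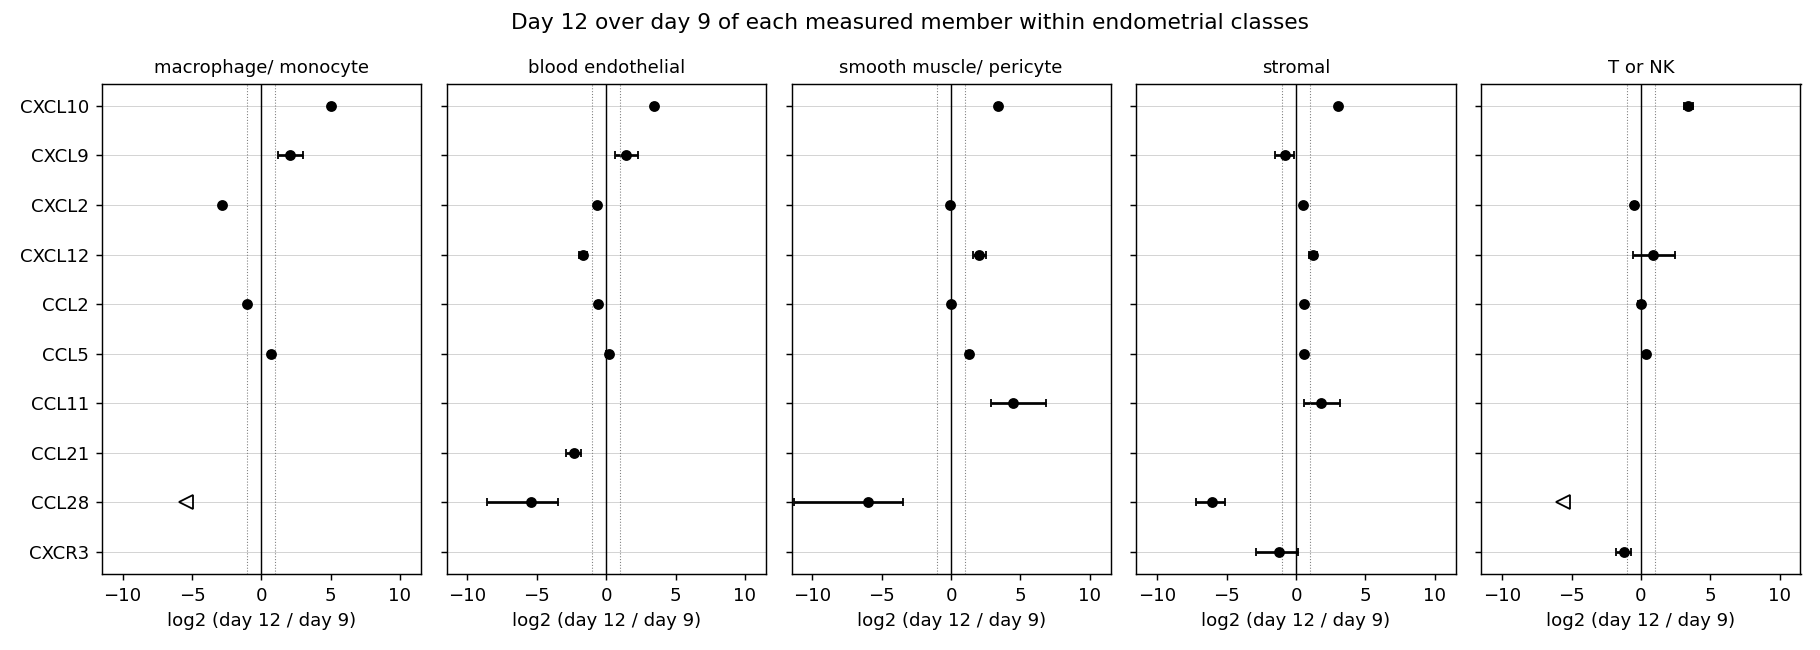
Log2 ratio of day 12 over day 9 for each gene with at least 20 UMIs in a class over both days, with exact 95% counting intervals, in 5 endometrial classes; dotted lines mark 2-fold, and open triangles are ratios against 3 counts where a day had none. CXCL10 is right of 0 in all 5 panels, CXCL2 is past the left 2-fold line in macrophages, and CXCL12 is on opposite sides of 0 in endothelium and in the vessel wall.

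Of 13 genes listed for the interferon gamma pathway, 12 were measured in macrophage or monocyte-like cells, of which 8 were at least 2-fold higher on day 12 and none 2-fold lower, beside the 6.27% and 9.4% of all genes. In stromal-like cells 6 of 12 were higher, beside 7.86% of all genes, and in blood endothelial-like cells 6 of 12, beside 5.79%. In T or NK cell-like cells 7 of 12 were higher, beside 6.12%, and in smooth muscle or pericyte-like cells 5 of 11, beside 6.39%. In B or plasma cell-like cells 4 of 7 were higher, beside 4.85%. None of the list was 2-fold lower in any of these. The median log2 ratio of the list was 1.37, 0.90, 0.88, 1.05, 0.74 and 1.23 in that order, from macrophages on. Medians over all tested genes were -0.06, -0.11, -0.09, -0.02, -0.02 and -0.28 in the same order. GBP1, a GTPase induced by interferon, stood at 1407 CPM on day 12, against 47.0 CPM on day 9 in macrophages, 29.9-fold higher, and at 703 CPM on day 12, against 13.4 CPM on day 9 in stroma, 52.6-fold higher. IRF1, a transcription factor that interferon induces, was 2.87-fold higher in macrophages and 1.40-fold in stroma, and JAK1, the receptor's kinase, had ratios of 0.841 and 1.5. The list's members were also chosen with earlier results of these data known.

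IFNG itself, the ligand of that pathway, was scarce in the endometrium and abundant in the day 12 embryo. T or NK cell-like cells had 12 IFNG UMIs on day 12 and 3 on day 9. The embryo library held 21110 IFNG UMIs on day 12 and 28 UMIs on day 9, that is 322 CPM on day 12, against 0.339 CPM on day 9. IFNG stands outside the rule for named genes and was added after its values were seen. Embryo and endometrium are separate libraries, and a link between their values was not tested.

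The NF-kappa-B list holds regulators of CXCL2 and CCL2, and 13 of its 14 genes matched, without IL1B. Its values are transcript levels, and the activity of the pathway was not tested. In macrophages 1 of 13 measured genes was at least 2-fold higher and 2 were lower, beside 6.27% and 9.4% of all genes, with a median log2 ratio of -0.21. NFKBIA, the inhibitor that NF-kappa-B induces, had a ratio of 0.658 in macrophages, TNFAIP3, another feedback inhibitor, 0.506, NFKBIZ, a nuclear cofactor, 1.34, and TNF, the cytokine, 2.64. Smooth muscle or pericyte-like cells had 1 of 11 measured genes higher, beside 6.39% of all genes, and blood endothelial-like cells 1 of 12, beside 5.79%. Stromal-like cells had 2 of 12 higher, beside 7.86%, and T or NK cell-like cells 0 of 12, beside 6.12%. B or plasma cell-like cells had 2 of 4 higher, beside 4.85%. None of the list was 2-fold lower in any of these. The medians were -0.04, -0.06, 0.11, -0.03 and 0.87 in that order. The dissociation response list, immediate early and heat shock genes that tissue digestion is known to raise, had median log2 ratios of -0.33 in macrophages, 0.52 in stroma, 0.44 in T or NK cells, -0.25 in smooth muscle or pericyte-like cells and 0.10 in endothelium. Its genes FOS, EGR1, FOSB and HSPA8 had ratios of 0.981, 1.06, 0.755 and 1.65 in macrophages. The part of tissue handling in the chemokine values was not tested.

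Of the 30 other chemokines listed, 18 matched a gene of the files, and their directions were mixed. In macrophages 3 of 10 measured were at least 2-fold higher and 3 lower on day 12, beside 6.27% and 9.4% of all genes, and in stroma 4 of 11 were higher and 2 lower, beside 7.86% and 12.2%. CCL8, a monocyte chemokine, stood at 7892 CPM on day 12, against 1903 CPM on day 9 in macrophages, 4.15-fold higher. CCL14 stood there at 148 CPM on day 12, against 1003 CPM on day 9, 6.79-fold lower. CCL4, an inflammatory CC chemokine, was 2.76-fold higher in T or NK cell-like cells on day 12 and had a ratio of 0.934 in macrophages. CCL26, an eosinophil chemokine like CCL11, stood at 286 CPM on day 12, against 729 CPM on day 9 in stroma, 2.55-fold lower.

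Of the 21 other receptors listed, 18 matched a gene of the files. In stroma 4 of 10 measured were at least 2-fold higher on day 12 and none 2-fold lower, beside 7.86% and 12.2% of all genes. In macrophages 0 of 8 were higher and 1 was lower, beside 6.27% and 9.4%. In T or NK cell-like cells 1 of 7 was higher and 1 was lower, beside 6.12% and 6.01%. The remaining classes had at most 3 receptors measured. ACKR2, a decoy receptor that clears inflammatory CC chemokines such as CCL2, CCL5 and CCL11, had 307 UMIs in stromal-like cells on day 12 and 4 on day 9, 85.6-fold higher [33.1 to 316]. ACKR3, a scavenger of CXCL12, had ratios of 1.62 in stroma and 2.29 in blood endothelial-like cells. ACKR1, a carrier of chemokines across vessel walls, stood at 138 CPM on day 12, against 120 CPM on day 9 in blood endothelial-like cells. CXCR4 was 3.99-fold lower in macrophages on day 12, at 107 CPM against 426 CPM on day 9. CCR2, the receptor of CCL2, added after its values were seen, had a ratio of 1.46 in macrophages [0.944 to 2.30].

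Over the 14 class-by-day points of the endometrium, genes with the pattern most like each member were named from 5481 candidates by Pearson's r of log2(CPM + 1), as a description over points that share libraries and cells. Those nearest to CXCL10 were STAT2 (r = 0.916) and MXD1 (0.915). Nearest to CXCL2 were C1orf54 (0.919), CCL2 (0.895) and EDNRB (0.894), so that CCL2 is the only member among the nearest genes of another. Nearest to CCL5 by name were CTSW (0.985) and GZMA (0.983), genes of cytotoxic lymphocytes, and nearest to CXCR3 were CD5 (0.944), a T cell surface protein, and PTPN22 (0.939). CCL28 was matched by SPDEF (0.982) and ATP6V1G3 (0.981), CXCL12 by RND1 (0.954), CAV2 (0.948) and DLC1 (0.937), and CXCL9 by CLIC2 (0.947), CD40 (0.917) and FAM111B (0.885). CCL2 was matched by PDE4A (0.946) and PLAU (0.917). For genes with few UMIs, CCL11 was matched by CCL19 (0.845), STMN2 (0.841) and PLA2R1 (0.834), and CCL21 by CLEC3B (0.920), FGD5 (0.920) and SYT7 (0.915). CCL5 was also matched by ENSSSCG00000029596 (0.990).

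In the embryos CXCL2 had the highest level of the 10 genes on day 12, and on day 9 none reached 2 CPM over the library. CXCL10 had 6 UMIs in the day 12 embryo and 0 in the day 9 embryo, which allows up to 0.0363 CPM. CXCR3 and CXCL9 had none on either day, which allows up to 0.0458 CPM on day 12, against 0.0363 CPM on day 9. CXCL2 stood at 60.4 CPM in the day 12 embryo and 1.07 CPM in the day 9 embryo, with 26.1% of day 12 cells holding a UMI, and it was highest in cluster 2 of day 12 at 122 CPM. CCL11 had 349 UMIs in the day 12 embryo and 14 UMIs in the day 9 embryo, that is 5.33 CPM on day 12, against 0.170 CPM on day 9. By class of day 12 embryo cells, CCL11 stood at 10.04 CPM in hypoblast-like cells, CCL2 at 15.3 CPM in extraembryonic mesoderm-like cells, from 65 UMIs in 15.2% of them, and CXCL12 at 8.17 CPM in epiblast-like cells, from 14 UMIs in 7.03% of them. Over the whole library the 5 genes CXCL12, CCL2, CCL5, CCL21 and CCL28 held between 0.0153 and 2.27 CPM on day 12 and between 0.0121 and 0.230 CPM on day 9.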

How the data were processed

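Single-cell RNA was measured in 4 libraries, 1 per group. The authors deposited raw UMI counts for each gene in each barcode. The submitters' processing notes name Cell Ranger 6.1.2 and Sscrofa11.1. Per the file headers, 3 matrices came from that version and the day 9 embryo from Cell Ranger 4. That library also holds empty barcodes, and its cells were called at 2759.47 UMIs. A cell was kept with 1000 UMIs or more, 500 genes or more and a mitochondrial share of 20% or less. No doublet caller was run, and doublets may remain among the cells.

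Each library was clustered alone with scanpy 1.11.5 (2000 variable genes without the 10 members, 30 components, 15 neighbours, Leiden resolution 0.6, seed 0). A marker (209 of 232 matched) was high at 0.5 of its highest cluster level. A cluster was named by 3 or more markers of a class among its 50 leading genes, otherwise by the class with most high markers, at a share of 0.5 or more; it stayed unnamed where an unrelated class had as many, or more markers among the 10 leading genes. T and NK cells were taken as 1 class.

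UMIs were summed per class and scaled to CPM. Ratios are day 12 over day 9, with exact binomial intervals given the sum (log2 ratios with 1 CPM added); levels have exact Poisson and shares exact binomial intervals at 95%. A count of 0 was bounded by 3 counts. No test was run. The computation was tested on simulated data. The named genes are all 10 members, the 3 genes most like each member in pattern, and the 4 genes with most UMIs of each context list; mitochondrial, haemoglobin and ribosomal protein genes were left out, and 3 genes are not reported here. The members and lists were chosen with earlier results of these data known. Promoter motifs and sequences were not used here. Alternatives are given in the closing section.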

Additional observations from a re-analysis of the deposited data

Results flagged for a closer look

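CXCL12 had ratios of opposite sign in classes of 1 library pair, and these differences between classes were not tested. Its log2 ratio of day 12 over day 9 was 2.01 in smooth muscle or pericyte-like cells and -1.64 in blood endothelial-like cells, a difference of 3.66. In stromal-like cells it was 1.13, against the same -1.64 in blood endothelial-like cells, a difference of 2.77. Blood endothelial-like cells were 817 on day 12 and 176 on day 9, with median depths of 3116 and 5983.5 UMIs per cell.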

How the results depend on the processing

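No paired analysis was possible because each group holds 1 library, and no replicate could be left out. Over 14 settings set at the start and 2 added after seeing the data, 28 ratios that were at least 2-fold gave 287 alternative values, of which 285 kept their direction and 273 stayed at 2-fold or more. Over all 52 ratios, whatever their size, 483 of 512 values kept their direction; those that did not include values of exactly 0 and ratios whose counting interval spans 0, such as CCL2 and CXCL12 in T or NK cells, which were -1.07 and -0.88 without cluster 7. Log2 ratios that left the counting interval of the reported value follow. CXCL10 in macrophages (5.03) was 4.85 with at least 2000 UMIs per cell, 5.24 at resolution 1.2, 5.87 without the 1% of cells with most CXCL10, 5.20 as a mean over cells and 5.33 as mean UMIs per cell. CXCL10 in stroma (3.05) was 3.18, 3.13 by median-ratio scaling, 3.32, 2.91 and 2.76 (at least 2000 UMIs, scaling, without the top 1%, mean over cells, mean UMIs). CXCL2 in macrophages (-2.83) was -3.46 at resolution 1.2, -3.00 without the top 1%, -3.09 with the lowest class level taken off and -2.54 as mean UMIs. CCL5 in T or NK cells (0.37) was 0.44 with the members kept for clustering, 0.51 from 500 UMIs, 0.48 at resolution 1.2, 0.43 with both libraries clustered together and 0.98 without cluster 7. CXCR3 was -0.52 with at least 2000 UMIs (-1.19). Shares of T or NK cells with a CXCR3 UMI, 3.06% on day 12 and 7.01% on day 9, were 4.44% and 10.4% unthinned. Without the minimum of 20 UMIs, members called higher in T or NK cells were 3 in place of 1. Those added were CXCL9, with 4 UMIs on day 12 and 1 on day 9, and CCL11, with 3 and 1, too few to compare. The share of all genes was not computed for that setting. Of ratios whose interval excludes 0, 5 values changed sign. For CXCL2 in T or NK cells (0.14 from 2000 UMIs) and in smooth muscle or pericyte-like cells (0.0037 at resolution 1.2 and 0.12 as mean UMIs) the cause was not tested. For CCL28 in endothelium (0.54) and CCL5 in stroma (-5.21), taking off the lowest class level sets 1 day to 0 by construction, since that class itself is the lowest, and these say nothing of stability. Counts on day 12 were 52 UMIs for CCL21, 61 for CCL28, 79 for CXCR3 and 87 for CCL11 in all, which limits their precision.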
